A study of Mus musculus with 12 samples.

Results

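The genes described here encode the ligands and receptors of 3 axon guidance systems in the embryonic mouse retina, namely ephrins and Eph receptors, Slits and Robos, and netrins with their receptors. They were taken by symbol among protein-coding genes, and 42 of 19954 listed genes matched. Of these, 40 belong to the 3 systems: 9 EphA receptors, 5 EphB receptors, 5 ephrin-A and 3 ephrin-B ligands, 3 Slits, 4 Robos, 3 secreted netrins, 2 netrin-G ligands, and 6 netrin receptors (Dcc, Neo1 and Unc5a to Unc5d). The other 2, Unc50 and Unc5cl, matched by name alone, and encode an endomembrane protein and a signalling adaptor rather than netrin receptors. RNA was sequenced in 12 libraries of E15.5 embryonic retina on a C57BL/6 strain background, each from a pool of 12 retinas. There were 3 libraries each of mutant males, mutant females, wildtype males and wildtype females, all numbered 4, 5 and 6. Mutants were Six3-Cre:Tbr2f/f, that is, floxed at Tbr2, the T-box transcription factor gene listed as Eomes, with Cre driven by Six3 regulatory sequence, which is active in the early eye field. Controls were labelled wild type, and the sources used here do not say whether they carried Cre or a floxed allele. Embryos came from several litters, and nothing in the labels ties a pool to a litter, so the spread between libraries is that between pools.

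Eph receptors are tyrosine kinases that bind ephrins on neighbouring cells. Ephrin-A ligands are held in the membrane by a lipid anchor, while ephrin-B ligands span it and can signal back into their own cell. In the mouse retina, graded EphA and ephrin-A levels along the nasotemporal axis, and EphB and ephrin-B levels along the dorsoventral axis, set where ganglion cell axons end in the brain. Slits are secreted repellents read by Robo receptors, and help confine ganglion cell axons to the fibre layer and the optic pathway. Netrin-1 at the optic disc acts on Dcc to lead axons out of the eye, and Unc5 receptors turn a netrin response to repulsion.

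Eomes, the targeted gene, had 9.62 to 27.4 CPM (counts scaled to a common library total) in mutant libraries and 53.4 to 76.1 CPM in wildtype libraries, with no overlap. Libraries held 18514607 to 27072825 counts. Mutant male 6 stood apart, with the lowest total and with the lowest number of genes detected, at 16903. The summed level of 8 ganglion cell markers was 2396 to 2628 CPM in mutants and 2406 to 2571 CPM in wildtype, and that of 6 progenitor markers was 4662 to 5975 CPM in mutants and 4554 to 4916 CPM in wildtype. The mean was higher in mutants for 2 of the 8 and 6 of the 6, and their part in the results was not tested. In whole retina, fewer cells of a type and less RNA per cell cannot be told apart.

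The promoters of 4 genes are shown, each from 250 bases before to 50 bases after the start of transcription, as given by RefSeq on GRCm38.p6. Slit3 and Ephb1 are shown because they had the smallest p-values of the family for the genotype, and Ephb2 and Efnb2 because they had the highest levels among receptors and ligands. Capitals mark the GC box (GGGCGG) and the TATA box (TATAAA) on either strand; adjoining matches may overlap.
Slit3, GRCm38.p6 chr11:35121206-35121505, plus strand: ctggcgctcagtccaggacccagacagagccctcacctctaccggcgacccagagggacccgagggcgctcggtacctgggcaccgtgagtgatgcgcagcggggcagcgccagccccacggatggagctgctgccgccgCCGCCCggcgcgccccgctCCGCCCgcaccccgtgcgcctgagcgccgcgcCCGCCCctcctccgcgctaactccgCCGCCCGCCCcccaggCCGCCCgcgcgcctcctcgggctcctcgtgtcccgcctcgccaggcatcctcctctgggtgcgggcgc
Ephb1, GRCm38.p6 chr9:102354644-102354943, minus strand: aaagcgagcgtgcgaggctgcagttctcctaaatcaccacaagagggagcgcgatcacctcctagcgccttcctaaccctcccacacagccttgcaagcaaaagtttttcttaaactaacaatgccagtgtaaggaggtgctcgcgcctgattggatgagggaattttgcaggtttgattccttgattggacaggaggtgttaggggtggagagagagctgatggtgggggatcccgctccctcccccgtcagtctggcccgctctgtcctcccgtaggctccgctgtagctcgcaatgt
Ephb2, GRCm38.p6 chr4:136835963-136836262, minus strand: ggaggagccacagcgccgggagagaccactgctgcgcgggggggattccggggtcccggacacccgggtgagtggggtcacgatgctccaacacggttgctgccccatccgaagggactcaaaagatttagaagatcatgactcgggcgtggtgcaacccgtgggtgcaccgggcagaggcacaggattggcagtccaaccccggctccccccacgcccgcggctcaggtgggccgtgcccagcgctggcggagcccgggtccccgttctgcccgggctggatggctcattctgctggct
Efnb2, GRCm38.p6 chr8:8661193-8661492, minus strand: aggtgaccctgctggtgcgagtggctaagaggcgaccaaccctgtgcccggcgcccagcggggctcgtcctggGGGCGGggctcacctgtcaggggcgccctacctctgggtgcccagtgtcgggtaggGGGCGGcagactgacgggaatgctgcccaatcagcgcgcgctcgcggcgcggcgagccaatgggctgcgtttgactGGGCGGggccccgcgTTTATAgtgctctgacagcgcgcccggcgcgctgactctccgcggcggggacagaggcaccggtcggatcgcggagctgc
The Slit3 promoter held 6 GC boxes and the Efnb2 promoter 3, and the Efnb2 promoter also held 1 TATA box. Those of Ephb1 and Ephb2 held neither motif. The RefSeq table had promoters for 37 of the 42 genes, 42 promoters in all, some of them alternative starts of 1 gene. A GC box was present in 71.4% of them, against 35.7% of all 32851 promoters in the table, and a TATA box in 4.76% against 13.6%. Median GC content was 64.8% in these promoters and 52.7% in all. The T-box motif AGGTGTGA was found on neither strand in any of the 42, and in 1.28% of all promoters. These are matches of letters in short windows, and nothing about binding follows from them. All promoters were taken without a filter on gene type or on listing here, unlike the 42, so the shares do not compare like sets.

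Levels were compared between genes as deposited FPKM, the authors' measure scaled to gene length and library depth. By mean FPKM in wildtype, ephrin-B2 was the most abundant of the 42 transcripts and Slit3, Epha1 and Unc5cl the least. Efnb2, the transmembrane ligand that marks dorsal retina, ran from a lowest of 58.3 through a median of 62.5 to a highest of 66.2 FPKM in mutants, and from 60.9 through 64.8 to 68.0 FPKM in wildtype. In wildtype it ranked at the 94.0th percentile of listed protein-coding genes. Ephb2, the receptor that is high in ventral retina, followed with 39.2, 46.4 and 57.1 FPKM in mutants and 40.5, 43.5 and 46.8 FPKM in wildtype. The ranges of these 2 genes did not overlap in wildtype, nor did that of Ephb2 with the next, Efnb3, at 29.8 to 36.2 FPKM in wildtype. Below them Efnb3, Efna2, Epha5, Neo1, Unc50 and Robo2 lay between a mean of 32.0 FPKM and one of 22.1 FPKM in wildtype, and no neighbours among them were apart beyond their ranges. In all, 8 of the 41 steps in the wildtype order separated neighbours whose 6 libraries did not overlap.

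**Figure D1:**
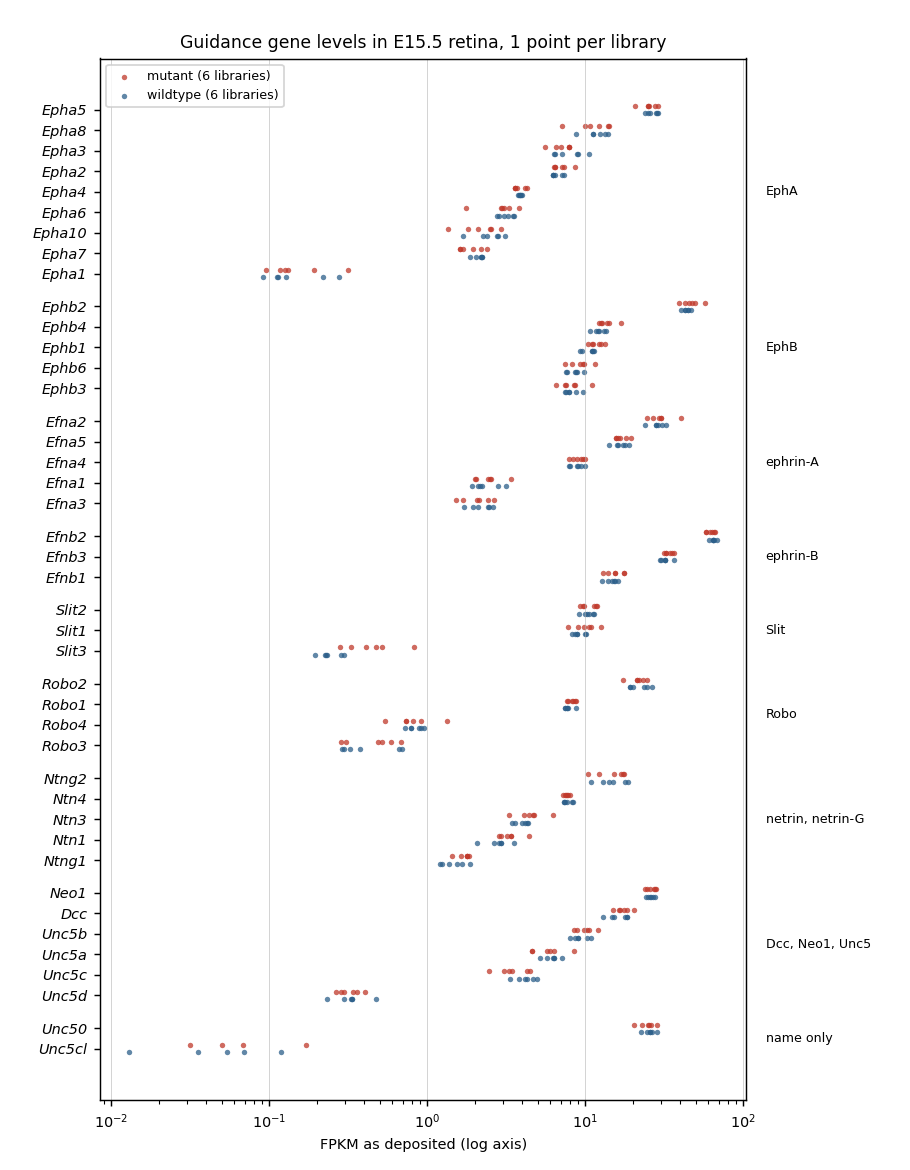
Deposited FPKM (log axis) of the 42 genes, grouped by family and ordered by wildtype mean, with 1 point per library (6 mutant above 6 wildtype; libraries at 0 for Unc5cl are not drawn). Mutant and wildtype points of a gene lie over each other nearly throughout, while levels span from under 0.1 FPKM for Unc5cl to over 60 FPKM for Efnb2.

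The Eph families were led by 1 gene each. Among receptors of the A class, Epha5, whose protein is graded across the retina, stood at 20.6 to 28.7 FPKM in mutants (median 25.2) and 23.8 to 28.9 FPKM in wildtype (median 26.9). It made up 40.9% of summed EphA FPKM in mutants and 41.1% in wildtype. Epha8, Epha3, Epha2, Epha4, Epha6, Epha10 and Epha7 followed in that order in wildtype, with means from 11.8 down to 2.12 FPKM, and Epha1 was near the limit of detection at 0.156 ± 0.0729 FPKM (SD, n = 6). In the B class Ephb2 made up 52.1% of the sum in mutants and 52.5% in wildtype. Ephb4, known mostly from veins, Ephb1, the receptor of ventrotemporal axons that stay uncrossed, Ephb6, which lacks kinase activity, and Ephb3 lay close together, from 12.2 ± 0.983 to 8.20 ± 0.856 FPKM in wildtype. Among ephrin-A ligands Efna2 led, with 24.7 to 40.2 FPKM in mutants (median 29.6) and 23.8 to 32.4 FPKM in wildtype (median 28.5). Efna5, its partner in the retinal gradient, averaged 16.9 ± 1.55 FPKM in mutants and 16.7 ± 1.71 FPKM in wildtype, whereas Efna4 averaged 8.87 ± 0.790 and Efna1 and Efna3 2.39 ± 0.484 and 2.20 ± 0.347 FPKM in wildtype. The X-linked Efnb1 had 12.9 to 17.7 FPKM in mutants (median 15.4) and 12.7 to 16.2 FPKM in wildtype (median 15.02).

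Among Slits, Slit2 and Slit1, the pair known to act in the mouse optic pathway, were at like levels, and Slit3 was far lower. Slit2 had 9.19 to 11.9 FPKM in mutants (median 10.6) and 9.08 to 11.4 FPKM in wildtype (median 10.4), and Slit1 averaged 10.1 ± 1.66 FPKM in mutants and 9.14 ± 0.759 FPKM in wildtype. Robo2, the main Slit receptor of ganglion cell axons, had 17.4 to 24.6 FPKM in mutants (median 21.6) and 19.1 to 26.3 FPKM in wildtype (median 21.8), which was 69.1% of summed Robo FPKM in mutants and 70.7% in wildtype. Robo1 was at 8.25 ± 0.395 FPKM in mutants and 7.81 ± 0.459 FPKM in wildtype. Robo4, an endothelial gene, and Robo3, known from commissural neurons, stayed under 1.5 FPKM in every library. Of the netrin group, Ntng2, a membrane-anchored netrin-G that does not bind Dcc, led with 10.4 to 17.7 FPKM in mutants (median 16.1) and 10.8 to 18.6 FPKM in wildtype (median 14.5). The secreted netrins were lower: Ntn4 averaged 7.72 ± 0.466, Ntn3 3.95 ± 0.363 and Ntn1 2.82 ± 0.478 FPKM in wildtype. Among receptors, Neo1 had 23.8 to 28.0 FPKM in mutants (median 26.5) and 24.3 to 27.4 FPKM in wildtype (median 25.99), and Dcc had 15.1 to 20.3 FPKM in mutants and 12.9 to 18.3 FPKM in wildtype. The repulsive receptors were lower, with wildtype means of 9.32 ± 1.08 for Unc5b, 6.15 ± 0.643 for Unc5a, 4.19 ± 0.580 for Unc5c and 0.334 ± 0.0795 FPKM for Unc5d.

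Some of these genes lie close to each other on mm10. Robo4 and Robo3 are 1.65 kb apart on chromosome 9, Efna3 and Efna4 10.4 kb apart on chromosome 3 with Efna1 32.8 kb from Efna3, and Ephb2 lies 93.4 kb from Epha8 on chromosome 4, with 3 listed genes between them. Robo1 and Robo2 follow each other on chromosome 16 with 846 kb and no other listed gene between them. Such pairs could differ in level: Ephb2 was above Epha8, and Efna4 above Efna3, in every wildtype library. Of the 42 genes, 14 overlapped another listed gene, 12 of them one on the opposite strand, and with no strand setting given the reads of such pairs cannot be told apart. They include Ephb1 (ENSMUSG00000032537, chromosome 9, 101922128 to 102354693), while Slit3 (ENSMUSG00000056427, chromosome 11, 35121224 to 35708507) overlapped none.

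Over both sexes, no guidance gene passed the test for genotype. EdgeR's quasi-likelihood test, with p-values adjusted by Benjamini-Hochberg across every gene tested, called 0 of 41 tested genes of the family (Unc5cl, with 0 to 9 reads a library, was too low to test), where 4 of 15467 genes were called in all, or 0.0259%. DESeq2 and limma voom also called 0 of them, and so did each of the other alternatives. At an unadjusted p under 0.05 there were 2 by each of the 3 tools, Slit3 and Ephb1. By edgeR this was 4.88% of those tested. Of all genes, 2.92% had such a p by edgeR, 2.92% by DESeq2 and 3.32% by limma voom. The median log2 fold change was 0.02 over the 41 genes and -0.01 over all genes, with 25 higher and 16 lower in mutants.

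The intervals of the differences were narrow for most of the family. For 37 of 41 genes the 95% interval of the single gene lay inside a 1.5-fold change in either direction, beside 73.3% of all genes tested, and the exceptions were Slit3, Epha1, Robo3 and Unc5c. Efnb2 differed by a log2 fold change of -0.06 (interval -0.19 to 0.06), Ephb2 by 0.10 (-0.06 to 0.25) and Robo2 by -0.05 (-0.28 to 0.19). Neo1 stood at 0.01 (-0.12 to 0.14), Slit2 at 0.02 (-0.17 to 0.21), Dcc at 0.09 (-0.13 to 0.32) and Epha5 at -0.08 (-0.27 to 0.11). A larger difference in the few cells that express Eomes would not show as such in whole retina.

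**Figure D2:**
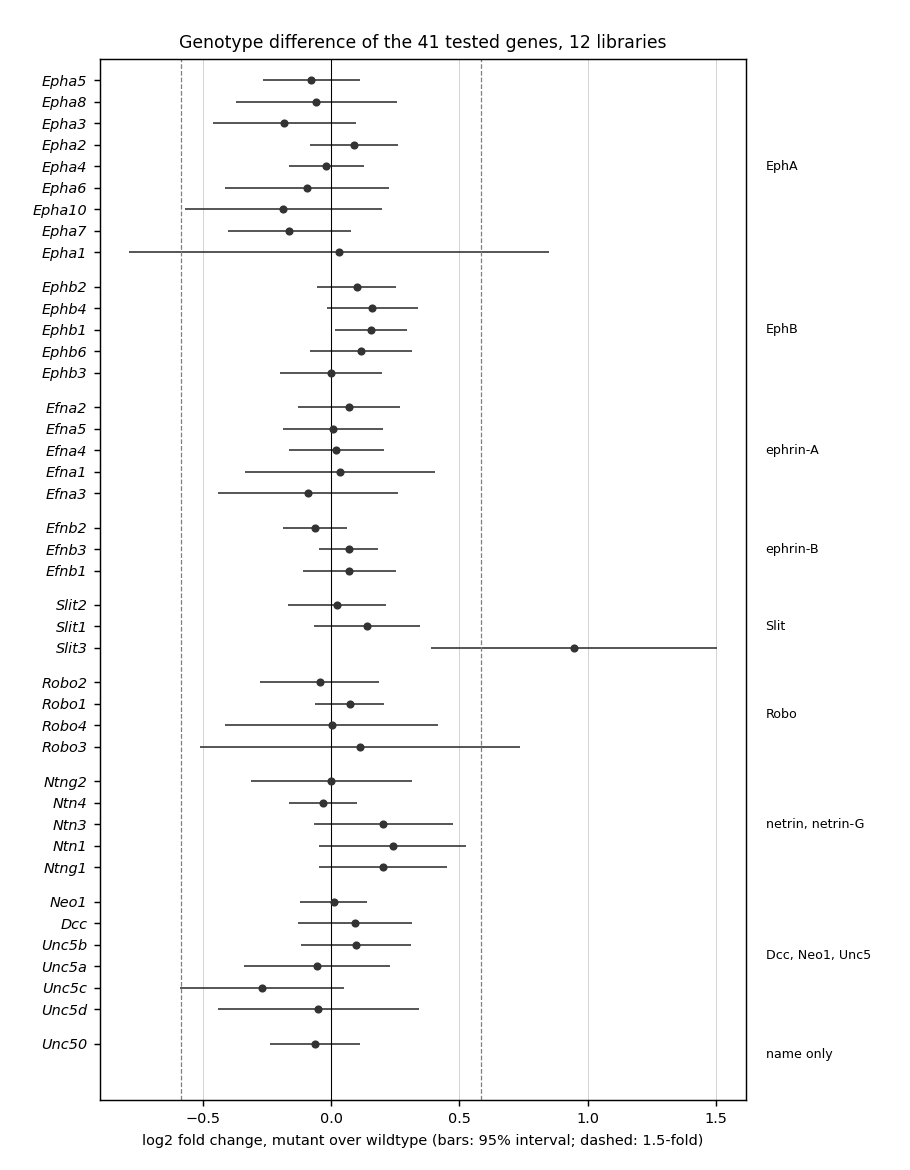
Log2 fold change of mutant over wildtype for the 41 tested genes (edgeR, 12 libraries, sex as a term), with bars for the 95% interval of each gene and dashed lines at 1.5-fold. Slit3 at 0.95 stands out to the right with a wide interval, and the point estimates of the other 40 lie between -0.27 and 0.24.

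Slit3, a Slit best known from vessels, mesenchyme and the developing diaphragm, had the largest difference and was among the 3 lowest genes by FPKM in wildtype. Its level was 2.14, 2.69 and 2.48 CPM in mutant males 4, 5 and 6, against 1.20, 1.48 and 1.18 CPM in wildtype males. In females it was 1.73, 4.32 and 1.46 CPM in mutants, against 1.22, 1.016 and 1.55 CPM in wildtype. Males did not overlap, whereas in females mutant 6 lay below wildtype 6, and mutant female 5 was far above all others. These values rest on 30 to 101 reads per mutant library and 20 to 38 reads per wildtype library. The mean was 2.47 ± 1.01 CPM in mutants and 1.27 ± 0.202 CPM in wildtype (SD, n = 6 each). EdgeR gave a log2 fold change of 0.95 (SE 0.26, unadjusted p = 0.00286, adjusted p = 0.918), so the difference did not pass over all genes. The adjusted p ran from 0.417 to 0.9999 over its 21 alternatives. The authors' deposited table of both sexes lists Slit3 with a log2 fold change of 0.31 and an adjusted p of 0.267. DESeq2 run here on the counts, without shrinking fold changes, gave 0.95. Whether the authors' log2 values were shrunk towards 0 was not tested, so these may be unlike measures.

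Mutant female 5 was also the library with the most lens RNA, with a summed level of 7 lens genes of 1572 CPM, where the others held 4.86 to 763 CPM. Without mutant female 5 the log2 fold change of Slit3 was 0.66, and without the 3 libraries highest in Cryaa, the lens gene (mutant female 5, mutant male 5 and wildtype male 5), it was 0.63. Among the 5 libraries rich in mt-Nd6, a mitochondrial transcript, Slit3 stood at 0.42, and among the other 7 at 1.28. Mutant male 6, with the lowest lens sum, had 2.48 CPM of Slit3, above every wildtype library. All 7 listed lens genes had a higher mean in mutants, with sums of 4.86 to 1572 CPM in mutants and 8.49 to 635 CPM in wildtype, and Crygs and Mip were at 0 in some libraries of either genotype. Summed markers of vessels and mesenchyme were at 241 to 278 CPM in mutants and 239 to 271 CPM in wildtype, with 6 of 9 higher in the mutant mean. The part of these cells in the level of Slit3 was not tested.

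Ephb1 had the second smallest p and a small difference. It had 52.0, 58.5 and 61.8 CPM in mutant males, against 51.6, 51.5 and 52.6 CPM in wildtype males 4, 5 and 6. In females it had 48.7, 51.8 and 57.0 CPM in mutants, against 43.0, 44.3 and 52.3 CPM in wildtype. In both sexes the ranges overlapped. In each sex every mutant library was above the wildtype library of the same number, although it is open whether the numbers mark pairs. How many of all genes showed such an order was not counted. The log2 fold change was 0.15 (SE 0.07, edgeR unadjusted p = 0.0349, adjusted p = 0.918), and the adjusted p ran from 0.422 to 0.9999 over its alternatives. Ephb1 was at 0.03 among the 5 libraries rich in mt-Nd6 and at 0.26 among the other 7.

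**Figure D3:**
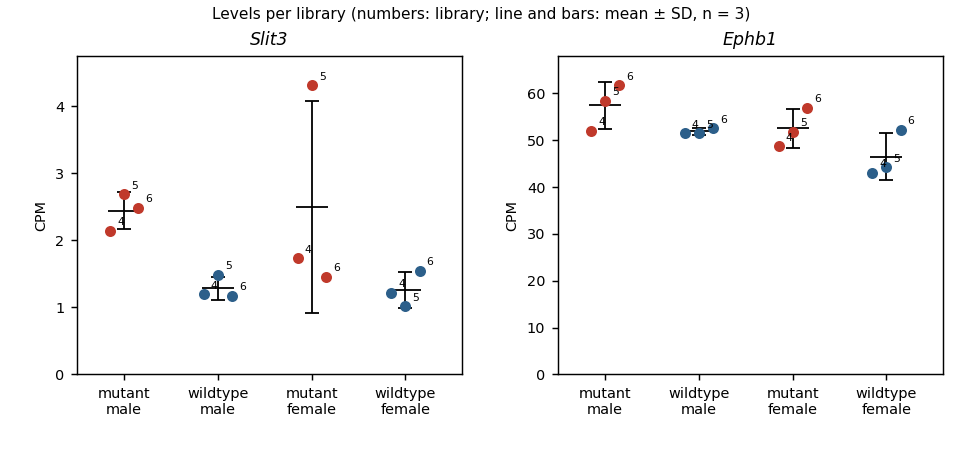
CPM of Slit3 and Ephb1 in each library, with the library number beside each point and the mean ± SD of each group of 3. For Slit3 the 3 mutant males lie above all wildtype libraries and mutant female 5 reaches 4.32 CPM, while for Ephb1 mutant and wildtype points of each sex overlap.

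No gene of any family passed the test, and whether families differed from each other was not tested. Of all genes tested, 47.35% were higher in mutants. Of the 9 EphA genes 7 were lower and 2 higher in mutants, with a median of -0.08. Of the 5 EphB genes 4 were higher, with a median of 0.12, and Ephb3 stood at -0.0003. The 5 netrin and netrin-G genes had a median of 0.20, led by Ntn1 at 0.24 (SE 0.13), which averaged 19.7 ± 3.28 CPM in mutants and 16.5 ± 2.81 CPM in wildtype (SD, n = 6 each). Unc5c was the lowest of all at -0.27 (SE 0.15), with 32.5 ± 7.06 CPM in mutants and 39.0 ± 5.39 CPM in wildtype. The 3 Slits were all higher in mutants, with a median of 0.14. Ephrin-A genes had a median of 0.02, ephrin-B genes of 0.07, Robos of 0.04 and netrin receptors of -0.02, and Unc50 was at -0.06. The summed FPKM of each family overlapped between genotypes, for example 57.9 to 66.2 in mutants and 60.6 to 71.0 in wildtype for EphA, and 78.1 to 109.7 in mutants and 78.9 to 88 in wildtype for EphB.

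In males alone edgeR called 0 of 40 tested guidance genes and 0 of 14950 genes (0%), and DESeq2 and limma voom called 0 of the family too. EdgeR thus missed Eomes in males, at 21.2 to 27.4 CPM in mutants and 56.8 to 76.1 CPM in wildtype. Its 0 calls in males therefore cannot show that guidance genes did not differ. Slit3 was the 1 guidance gene with an unadjusted p under 0.05, where 1.45% of all genes had one, at a log2 fold change of 0.92 (SE 0.27). Without mutant male 4 there were 5 (Ephb4, Ntn1, Ntn3, Slit3 and Unc5c), where 12.1% of all genes had one. In females alone edgeR called 0 of 40 and 1 of 14956 genes (0.00669%), namely Eomes, with 2 genes and 0 guidance genes once the replicate number was a block. None of the 40 had an unadjusted p under 0.05 in females by edgeR, where 2.63% of all genes had. DESeq2 gave Slit3 (beside 1.98% of all genes), limma voom Epha7 and Slit1 (beside 2.88%), and edgeR with the block Epha7 (beside 5.68%). EdgeR with RLE size factors gave Slit1 (beside 2.69% of all genes) and without the filter on low counts Slit3 (beside 2.56%). Leaving out each library gave 0 to 4. Without mutant female 4 they were Epha7, Slit1, Slit3 and Unc5c, where 14.3% of all genes had such a p. There was 1 without mutant female 6 (beside 3.13% of all genes) and 1 without wildtype female 4 (2.19%), 5 (2.88%) or 6 (1.22%). In females Slit3 stood at 0.99 (SE 0.45), and at 0.34 without mutant female 5. In males the 3 mutants lay above the 3 wildtype libraries for Slit3 and Unc5d (4.88%, beside 2.47% of all genes tested) and below them for 0 guidance genes (beside 3.04%). In females they did not overlap for Ephb2 and Slit1, higher in mutants (4.88%, beside 4.21%), and for Epha7, lower (2.44%, beside 3.89%). No guidance gene was separated in both sexes, where 0.155% of all genes were so with mutants higher and 0.239% with mutants lower.

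The interaction of genotype and sex, which asks whether the genotype difference was larger in one sex, called 0 of 41 guidance genes and 0 of 15467 genes by edgeR (0%), DESeq2 and limma voom, with none of the family at an unadjusted p under 0.05 beside 1.73% of all genes. The largest such difference, female minus male, was that of Unc5d at -0.68 (interval -1.39 to 0.02). Unc5d had 3.62, 3.21 and 3.02 CPM in mutant males, against 2.08, 2.97 and 2.94 CPM in wildtype males. In females it had 2.66, 2.35 and 2.52 CPM in mutants, against 2.66, 2.998 and 4.25 CPM in wildtype. Between wildtype females and wildtype males edgeR called 0 of 41 guidance genes (0.00647% of all genes, that is, Xist), DESeq2 and limma voom called 0, and 0 had an unadjusted p under 0.05, where 1.49% of all genes had one. Log2 differences of female over male ran from -0.30 to 0.32. The X-linked Efnb1 averaged 48.7 ± 3.80 CPM in wildtype females and 47.0 ± 4.95 CPM in wildtype males (SD, n = 3 each), a log2 difference of 0.08 (interval -0.19 to 0.34).

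Levels also varied from library to library. Over the 12 libraries the median coefficient of variation of CPM was 13.1% for the 41 genes and 14.1% for all genes tested, and among genes of at least 1 CPM it was 13.04% for 40 guidance genes and 12.77% for all. It was smallest for Ntn4 (4.84%) and Efnb2 (4.86%), and largest among tested genes for Slit3 (50.02%), Epha1 (46.2%) and Robo3 (36.0%). Mutant male 6 had the highest level of all 12 libraries for 16 of the 41 genes and the lowest for 7, that is, 39.0% and 17.1%, beside 27.2% and 28.4% of all genes. In it Ephb2 reached 622 CPM and Efna2 85.8 CPM, while Epha5 was at 106 CPM, Epha6 at 6.91 CPM and Unc5c at 22.8 CPM. This library also had the highest progenitor marker sum, at 5975 CPM, and without it the log2 fold change of mutant over wildtype was 0.04 for Ephb2, -0.01 for Efna2 and 0.008 for Robo2.

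The level of mt-Nd6 divided the libraries into 5 above 100 CPM (mutant male 4, mutant female 4, wildtype male 5, wildtype females 4 and 6) and 7 below, with libraries of both genotypes on either side. For 3 guidance genes these sets did not overlap, which is 7.32% of those tested, beside 15.7% of all genes. Robo2 was at 187 to 214 CPM in the high set and 142 to 178 CPM in the others, Epha5 at 144 to 149 and 106 to 134 CPM, and Efna2 at 50.7 to 60.1 and 61.5 to 85.8 CPM. These sets are not groups of the study, and no test was made between them. Within the 7 libraries low in mt-Nd6, 7 guidance genes had an unadjusted p under 0.05 for genotype by edgeR (Ephb1, Ephb2, Ntn1, Ntn3, Slit1, Slit3 and Unc5c), where 8.72% of all genes had one, and within the other 5 there were 3 (Epha3, Epha8 and Ephb3), where 7.43% had. None passed after adjustment in either set.

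**Figure D4:**
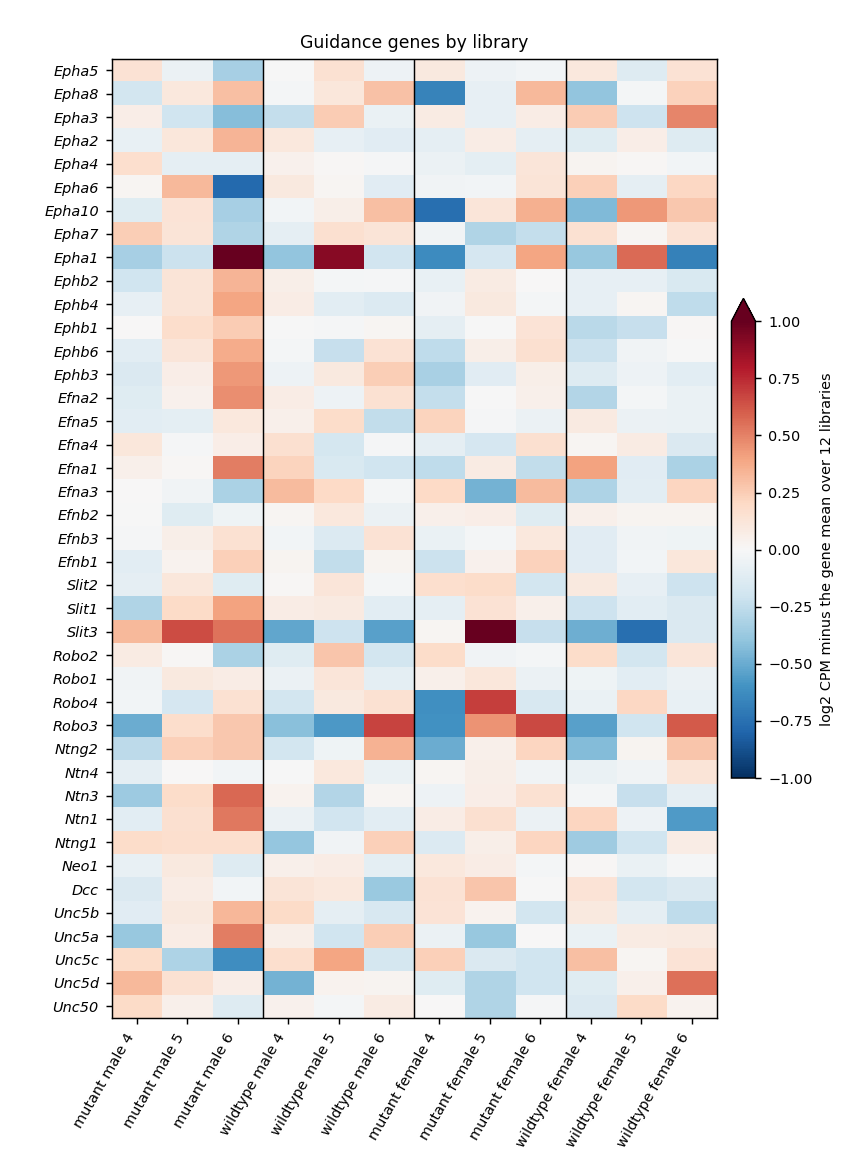
Log2 CPM of the 41 tested genes in each library, relative to the mean of the gene over 12 libraries (red higher, blue lower; values above 1 are drawn at the end of the scale). Mutant male 6 is red at the EphB genes, Ntn3 and Ntn1 and blue at Epha6 and Unc5c, and no block of genes separates mutant from wildtype columns.

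Genes that act with these ligands and receptors were read from lists chosen for known roles. Of 45 listed genes of signalling partners, 28 were higher and 17 lower in mutants, 0 passed edgeR's test and 2 had an unadjusted p under 0.05 (4.44%, beside 2.92% of all genes). These were Dscam, a cell adhesion molecule that can bind netrin, at 54.9 ± 1.89 CPM in mutants and 49.1 ± 3.30 CPM in wildtype, and Vav2, an exchange factor downstream of Eph receptors, at 87.8 ± 5.49 CPM in mutants and 78.6 ± 5.55 CPM in wildtype (SD, n = 6 each). Their log2 fold changes were 0.16 (SE 0.06) and 0.15 (SE 0.06). Of 22 factors that set regional identity or crossing choice in the retina, 13 were higher and 9 lower, 0 passed and 2 had an unadjusted p under 0.05 (9.09%). Shh, the hedgehog ligand made by ganglion cells, was at 6.05 ± 0.530 CPM in mutants and 4.09 ± 1.122 CPM in wildtype, and Foxd1, a forkhead factor of ventrotemporal retina that acts upstream of Ephb1, at 42.0 ± 8.91 CPM in mutants and 34.2 ± 2.71 CPM in wildtype. Their log2 fold changes were 0.56 (SE 0.18) and 0.29 (SE 0.11), both with an edgeR adjusted p of 0.918. Vax2 and Tbx5, the ventral and dorsal factors known to set EphB and ephrin-B levels, were at 0.17 (SE 0.09) and -0.06 (SE 0.10).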

How the data were processed

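RNA of 12 libraries of pooled embryonic retina was measured. The submitters' processing notes name CASAVA, STAR 2.5, HTSeq 0.6.1 and DESeq2 as tools and mm10 as the build. Strand setting and annotation release are not stated there. The authors deposited 3 tables, of both sexes, males and females. Per the file headers each holds raw read counts, FPKM, a normalised signal column per library (the deposited count over a constant of the library), the authors' log2 fold changes, and their p-values and adjusted p-values. FPKM served levels between genes, counts served every test, and the signal columns and the deposited log2 values entered none. The 2 tables of 1 sex held the same counts as the table of both sexes for the genes they shared.

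Tests used edgeR 4.0.16 in R 4.3.3 with TMM scaling, filterByExpr, and a two-sided quasi-likelihood test, and p-values adjusted by Benjamini-Hochberg across every gene tested at a threshold of 0.05. Genotype was tested with sex as a term over 12 libraries, and within each sex over 6. The interaction and the comparison of wildtype sexes used 12 libraries. DESeq2 1.42.0 and limma 3.58.1 (voom) were alternatives. CPM is the count over the library total. SE was taken as the absolute log2 fold change divided by the root of F, and intervals use it with the degrees of freedom of the fit. The edgeR fits of both sexes, of males, of females and of the interaction were tested on simulated data. The alternatives and the comparison of wildtype sexes were not. The members, the lists and the rule for named genes (unadjusted p under 0.05, or highest FPKM of a family) were chosen with earlier results of these data known, and other genes were named after their values were seen. Deviations of libraries of the same number correlated across genes at 0.14 to 0.21 in females and at -0.21 to 0.29 in males. The number entered no main fit, and was a block only in an alternative fit of each comparison. No 2 libraries of a group agreed within sampling noise. Promoters came from RefSeq, GRCm38.p6, the assembly of mm10. Counts limit precision by counting error and the spread of 3 pools per group.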

Additional observations from a re-analysis of the deposited data

How the results depend on the processing

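The count of guidance genes called was 0 in every comparison under every alternative run. In males no fit but DESeq2 called Eomes, and in females it was lost on omitting mutants 5 or 6 or wildtypes 4, 5 or 6. Counts of 0 in such fits cannot show that guidance genes did not differ. The count of all genes called over both sexes was 4. It was 15 with DESeq2, 9 with the mt-Nd6 set as a term and 2 with the replicate block. Without the 3 lens-rich libraries it was 0, so that not even Eomes was called. It ran from 1 (omitting mutant male 5, mutant female 6, either of wildtype males 5 and 6, or wildtype female 4) to 5 leaving out each library in turn, and was 2 on omitting male 4 of either genotype or wildtype female 5. The 2 guidance genes with an unadjusted p under 0.05 by edgeR stood beside 2.92% of all genes. They became 7 within the libraries low in mt-Nd6, beside 8.72% of all genes, and 1 without the lens-rich libraries, beside 1.61%. Leaving out libraries in turn they ran from 1 to 7. There was 1 on omitting mutant males 5 or 6, mutant female 6 or wildtype male 4, where 2.37% to 2.97% of all genes had such a p. There were 7 without mutant male 4, where 11.7% of all genes had such a p. The median log2 fold change of the family was 0.11 within the low set and -0.04 within the high set, against 0.02, and ran from 0.0045 to 0.0586 leaving out each library. In males DESeq2 called 6 genes, where edgeR called 0. In females the 1 call became 9 with DESeq2, 2 with the replicate block, and 0 to 2 leaving out each library (0 on omitting mutants 5 or 6 or wildtypes 4 or 5, and 2 on omitting wildtype 6). The comparison of wildtype sexes gave 2 with DESeq2 and 1 to 2 leaving out each library (2 without mutant male 6). The block changed no other call.

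Differences near 0 changed sign, and none of them passed in either direction. Over both sexes Ntng2 was at -0.0042 without the filter on low counts, -0.0622 with the mt-Nd6 set as a term, -0.34 within the high set and -0.0744 without lens-rich libraries. Robo2 was at 0.0174 with the set as a term, 0.0788 within the low set and 0.0483 without lens-rich libraries, where Slit2 was at -0.0031. Within the high set Efna2 was at -0.0638, Ephb2 at -0.0492 and Neo1 at -0.0019. Leaving out each library, Ntng2 ran from -0.06 to 0.0816, Robo2 from -0.1001 to 0.0353, Neo1 from -0.0175 to 0.0377, Efna2 from -0.0144 to 0.1226 and Slit2 from -0.0204 to 0.0664. In males Ntng2 ran from -0.0571 to 0.2032, Neo1 from -0.11 to 0.0083, Robo2 from -0.17 to 0.11, Efna2 from -0.10 to 0.21, Epha5 from -0.23 to 0.0045 and Ephb2 from -0.0425 to 0.2262. In females Efna2 ran from -0.0063 to 0.13, Epha5 from -0.13 to 0.0089, Robo2 from -0.126 to 0.078, Ntng2 from -0.1959 to 0.1391 and Efnb2 from -0.0829 to 0.0284. The cause of these shifts was not tested. Over both sexes Slit3 ran from 0.42 to 1.28 and Ephb1 from 0.03 to 0.26 over the alternatives, both positive throughout. Depth limits the lowest genes: for Epha1, at 0.51 CPM in wildtype, the interval ran from -0.79 to 0.85.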
